A study of Homo sapiens with 6 samples.

Results

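Receptor tyrosine kinases are single-pass membrane proteins that bind a ligand outside the cell and phosphorylate tyrosines inside it. The phosphotyrosines recruit adaptors that activate the RAS-MAPK and PI3K-AKT pathways, and the receptors are then ubiquitinated, endocytosed and degraded or recycled. EGFR and its relatives, MET and AXL are studied in pancreatic ductal adenocarcinoma as drivers of growth, invasion and drug resistance. The 10 genes described here are EGFR, ERBB2, ERBB3, MET, MST1R, AXL, FGFR1, FGFR4, DDR1 and PTK7, out of 20056 protein-coding genes in the RefSeq gene table. They were taken by name, and every enrichment peak and summit inside their GRCh38 gene spans was read out.

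The data come from PANC-1, an established cell line from a human pancreatic ductal adenocarcinoma. Cells depleted of TRMT5, a tRNA methyltransferase that makes N1-methylguanosine (m1G), by siRNA for 4 days gave 2 m1G precipitates and 1 input library. Control cells, labelled WT control, also gave 2 m1G precipitates and 1 input library. The protocol has the cells reverse transfected with siRNA, but names no siRNA for the controls. In each case fragmented polyA+ RNA was precipitated with an antibody against m1G, and input is the RNA before precipitation. The authors' 2 peak lists, one from MeTDiff and one from MACS2, cover the series as a whole and mark neither condition nor library. Hence no value below has a replicate error, and depleted and control cells were not compared here. Depth per library is unknown. A peak can be found only in a transcript that is expressed, and the lists give no expression level, so a gene without a peak is not shown to lack m1G. Of 8 ductal and epithelial marker genes, 6 had a MeTDiff peak and 4 a MACS2 summit, against 37.2% and 18.0% of all protein-coding genes. KRT8, KRT18, KRT19 and SOX9 had both, EPCAM and MUC1 a peak only, and KRT7 and CDH1 neither. KRT8 and KRT18 overlap, and the strongest peak in their spans is the same one. That peak is on the plus strand, opposite to KRT8. The highest KRT18 summit also lies in the KRT8 span. Of 18 markers of acinar, endocrine, immune, endothelial and stromal cells, 1 had a peak (CD68) and 0 had a summit.

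The strongest signals in these genes lay in FGFR4, FGFR1, DDR1 and ERBB2. In DDR1 the highest MACS2 summit of all 10 genes fell inside a microRNA hairpin that lies within the gene, MIR4640 (GRCh38.p14, chromosome 6, plus strand, 30890883 to 30890972). The hairpin is shown because this summit lies in it and the DDR1 peak of largest fold reaches into it. That peak covers 300 bp, mostly outside the hairpin, and the summit lies 22 bp before it. Whether the signal belongs to the microRNA was not tested. Capitals mark the 60 bases that lie inside the MeTDiff peak, and the summit is base 9 from the 5′ end. That base is also the first base of the mature 5p microRNA, whose capitals mark its seed (bases 2 to 8). Sequences are those of RefSeq.
MIR4640 hairpin: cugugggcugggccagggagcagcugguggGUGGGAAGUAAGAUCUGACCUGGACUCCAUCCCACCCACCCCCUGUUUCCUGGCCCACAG
hsa-miR-4640-5p: uGGGCCAGggagcagcugguggg

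Guanine made up 32.2% of the hairpin and 56.5% of the 5p sequence. ERBB2 also holds a microRNA gene, MIR4728 (chromosome 17, plus strand, 39726495 to 39726561), with 35.8% guanine. It lay outside every peak and ended 24 bp before the fourth ERBB2 peak. It is shown for comparison with MIR4640, as the other microRNA gene within a member.
MIR4728 hairpin: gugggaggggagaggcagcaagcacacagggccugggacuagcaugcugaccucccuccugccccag

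Further sequences show where signals met annotated transcript starts, each as 30 bases on the plus strand. In DDR1 a summit fell on the first base of a RefSeq transcript that starts inside the gene (chromosome 6, 30888688). In PTK7 a summit lay 20 bp past the gene start (43076334). In these lines the capital is the summit base. In AXL (chromosome 19) and FGFR4 (chromosome 5) the capitals are bases inside the first MeTDiff peak, which in AXL began on the first base of the gene.
DDR1, 30888673 to 30888702: ttttatcccctgcagAgatgctgcccccac
PTK7, 43076319 to 43076348: gcgcgcgcggctccgGctcgggacgcctcg
AXL, 41219208 to 41219237: ggaggcaggggtgctGAGAAGGCGGCTGCT
FGFR4, 177086935 to 177086964: ggagcgctcgggctgtctgcGGACCCTGCC

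In all, 9 of the 10 genes had a MeTDiff peak, 46 peaks of the 18431 in that list, against 37.2% of protein-coding genes with at least 1 peak. A MACS2 summit lay in 8 of the 10, 14 summits of 6264, against 18.0% of protein-coding genes. Both kinds of signal were found in 7, against 16.8%. EGFR and MST1R had peaks without a summit, and ERBB3 a summit without a peak. The genes were proposed with results of these data known, and they are long, with a median span of 41554 bp against 24092 bp over all protein-coding genes. The shares are therefore a description. All 46 peaks lay on the strand of their gene, each gene's peaks carried a single Ensembl ID, and no peak of another ID fell in these spans. For FGFR1 the strand was taken from its 4 peaks, so these could not disagree with it.

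The fold of a MeTDiff peak is the authors' ratio of precipitate over input. Over the 46 peaks its median was 3.91, from 1.66 to 28.0, and over the whole list it was 4.24. Of the 46 peaks 27 lay below that list median, and 5 reached 10-fold (10.9%, against 12.7% of all peaks). The median of the largest fold per gene was 8.83 in the 9 genes and 6.0 in all protein-coding genes with a peak. A largest fold depends on how many peaks a gene has. The 9 genes held from 1 peak (MET) to 10 peaks (PTK7) each, while protein-coding genes with a peak had a median of 2. The score of a MACS2 summit is the authors' −log10 value, of p or of q. Its median was 22.3 over the 14 summits, from 12.1 to 54.9, and 16.4 over the whole list.

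**Figure D1:**
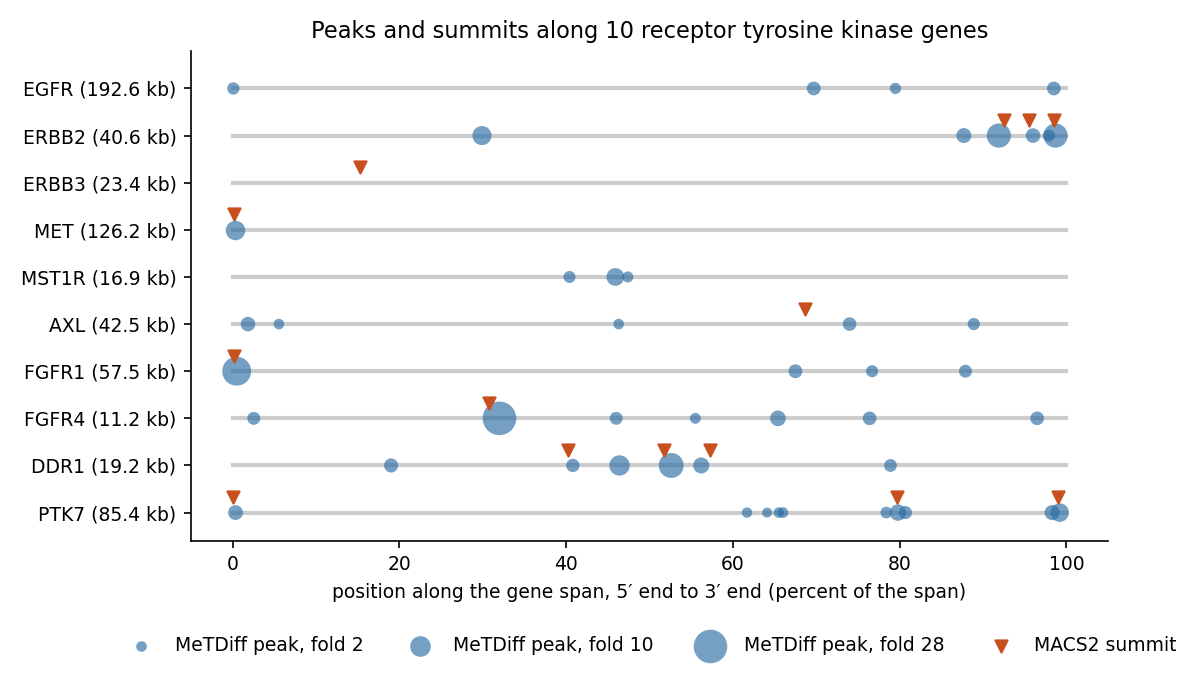
Each row is 1 gene, drawn from its 5′ end (left) to its 3′ end as percent of its span, with the span in kb beside the name. Circles are midpoints of MeTDiff peaks with area growing with fold, and triangles are MACS2 summits. ERBB3 is drawn from its lower coordinate. FGFR4 has the largest circle (28.0-fold), ERBB2 has 5 of its 6 peaks in the last part of the gene, and MST1R has 3 peaks close together.

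EGFR encodes the receptor for EGF and TGF-alpha (ENSG00000146648, chromosome 7, 55019017 to 55211628). Its 4 peaks had folds of 3.0, 4.03, 2.38 and 4.0 in order from the 5′ end, with false discovery rates (FDR) from 0.000417 to 0.00135. All 4 lay below the median fold of the whole list, so EGFR had peaks at several sites and no strong one. The first midpoint was 150 bp from the 5′ end (55019117 to 55019217) and the next at 69.7% of the span, with 133127 bp free of peaks between them. The last, at 98.5%, was 2894 bp from the 3′ end (55208634 to 55208834). The noncoding gene EGFR-AS1 (55179750 to 55188949) lies within the span and held no peak and no summit.

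ERBB2 encodes HER2, a receptor with no known ligand of its own that pairs with other family members (ENSG00000141736, chromosome 17, 39688094 to 39728658). Its 6 peaks had folds of 8.50, 4.88, 14.1, 4.57, 2.72 and 14.1 from the 5′ end. The first lay at 29.9% of the span and the other 5 between 87.7% and 98.7%, with 23111 bp free of peaks before them. The peaks of 14.1-fold were at 39725328 to 39725427 and at 39728019 to 39728268, with FDR values of 0.000209 and 9.55e-05. A fold of 14.1 exceeded 94.3% of all peaks in the list.

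All 3 ERBB2 summits lay in the same stretch near the 3′ end, with scores of 23.2, 12.5 and 44.4. The second lay in a block of the fourth peak. The third, at 39728069, lay in the last peak and 589 bp from the 3′ end of the gene. The first, at 39725618, was 191 bp past the 14.1-fold peak before it. MIEN1, a gene on the opposite strand, shares the last 149 bp of the ERBB2 span, and that shared stretch held no peak and no summit.

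The ERBB2 ID had a further peak 1519 bp past the end of the span, inside MIEN1 (39730177 to 39730426, plus strand, 5.27-fold). It overlapped a peak of another ID on the minus strand, ENSG00000141741 (39730184 to 39730482, 5.50-fold), by 243 bp. A summit of score 39.7 at 39730430 lay 4 bp past the ERBB2 ID's peak and inside the other one. Summits carry no strand. This peak was not counted among the 46, and the 6 peaks inside the ERBB2 span do not overlap MIEN1.

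ERBB3 encodes HER3, which binds neuregulins and has a weak kinase (chromosome 12, 56080108 to 56103505). It was the only member with no peak. Its 1 summit, with a score of 13.4, lay 3574 bp from the lower coordinate of the span (56083682), at 15.3% of it. The nearest MeTDiff block was 20980 bp away, past the other end of the gene and under another ID. ERBB4, the remaining relative, had neither a peak nor a summit.

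MET, the receptor for hepatocyte growth factor (ENSG00000105976, chromosome 7, 116672196 to 116798377), had 1 peak in a span of 126182 bp. It lay at the 5′ end (116672445 to 116672545) with a fold of 8.83 and an FDR of 0.00513, and its midpoint was 299 bp from the gene start. The only summit, with a score of 14.7, was 83 bp upstream of that peak (116672362). Both also lie in the span of COMETT, a noncoding gene on the minus strand that shares 15832 bp with MET. The peak was assigned to the plus strand, that of MET. The pseudogene LOC124901824 (116730914 to 116730965), also within MET, held no peak and no summit.

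MST1R encodes RON, the receptor for macrophage-stimulating protein and a relative of MET (ENSG00000164078, chromosome 3, 49887002 to 49903873). Its 3 peaks had folds of 2.80, 7.17 and 2.25 and lay together between 40.4% and 47.4% of the span. The longest gap between neighbours was 573 bp. The strongest was at 49896023 to 49896221. All 3 carry the same p-value, 0.003, and an FDR of 0.00575, and no summit fell in the gene. MET thus had its signal at the 5′ end and MST1R in the middle of the gene.

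AXL is the receptor for GAS6 and is associated with mesenchymal, drug-resistant tumour cells (ENSG00000167601, chromosome 19, 41219223 to 41261766). Its 5 peaks were spread along the gene, from the first base to 88.9% of the span, with folds of 4.50, 2.00, 2.00, 3.88 and 2.94. All 5 were spliced, that is, made of several blocks separated by gaps, and FDR values ran from 6.03e-05 to 0.000355. The 1 summit, with a score of 14.1 (41248466), lay 67 bp upstream of the fourth peak. The pseudogene TRK-TTT10-1 (41242237 to 41242309), which lies within AXL, held no peak and no summit. Like EGFR, AXL had several peaks and none above 5-fold. Of its relatives, TYRO3 had 3 peaks with a largest fold of 7.33 and a summit of score 7.72, and MERTK had 1 peak of 2.40-fold.

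**Figure D2:**
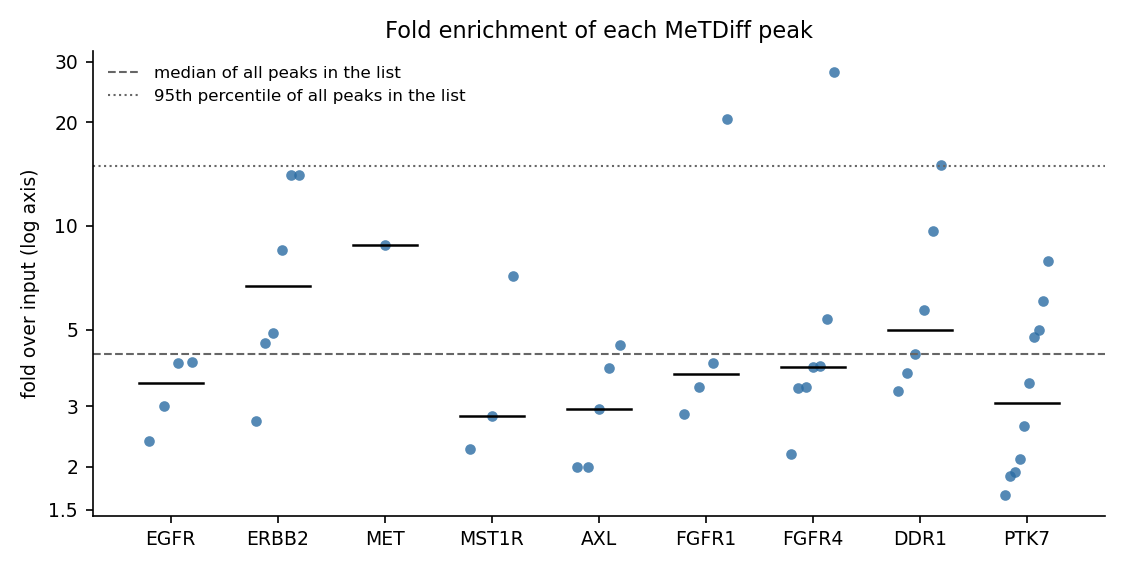
Each point is the fold over input of 1 MeTDiff peak (log axis) and the short bar is the gene's median. The dashed line is the median of all 18431 peaks (4.24) and the dotted line their 95th percentile (14.9). FGFR4, FGFR1 and DDR1 each have 1 peak above the dotted line, and the 4 EGFR peaks lie below the dashed one.

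FGFR4 and FGFR1 encode receptors for fibroblast growth factors, and each had 1 peak far above its others. FGFR4 (ENSG00000160867, chromosome 5, 177086915 to 177098144) had 7 peaks in 11230 bp, or 6.23 per 10 kb, the densest of the 10 genes. Their folds were 3.40, 28.0, 3.38, 2.17, 5.36, 3.92 and 3.90. The 28.0-fold peak (177090434 to 177090582) lay at 32.0% of the span and exceeded 99.0% of all peaks. Apart from it the largest was 5.36. FDR values ran from 1.02e-07 to 4.27e-07, the lowest among the 10 genes. The 1 summit (177090376) had a score of 49.5 and lay 58 bp upstream of the strong peak.

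FGFR1 (ENSG00000077782, chromosome 8, 38411143 to 38468635, minus strand) had 4 peaks with folds of 20.5, 4.0, 2.84 and 3.41 from the 5′ end. The 20.5-fold peak covered 551 bp at the 5′ end (38468084 to 38468634), the widest single block of all 46 peaks. It held the only summit, with a score of 47.6, 71 bp from the gene start (38468564). The other 3 lay between 67.5% and 87.9% of the span, after 38190 bp without a peak. LOC102723716 and RPS20P22, which overlap FGFR1, held no peak and no summit in the shared stretches. In FGFR1 the strong site was at the gene start, whereas in FGFR4 it was 3593 bp into the gene.

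Of the other FGFR genes, FGFR3 had 6 peaks, of which the largest reached 20.5-fold, and 5 summits that scored up to 41.7. FGFR2 had neither a peak nor a summit.

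**Figure D3:**
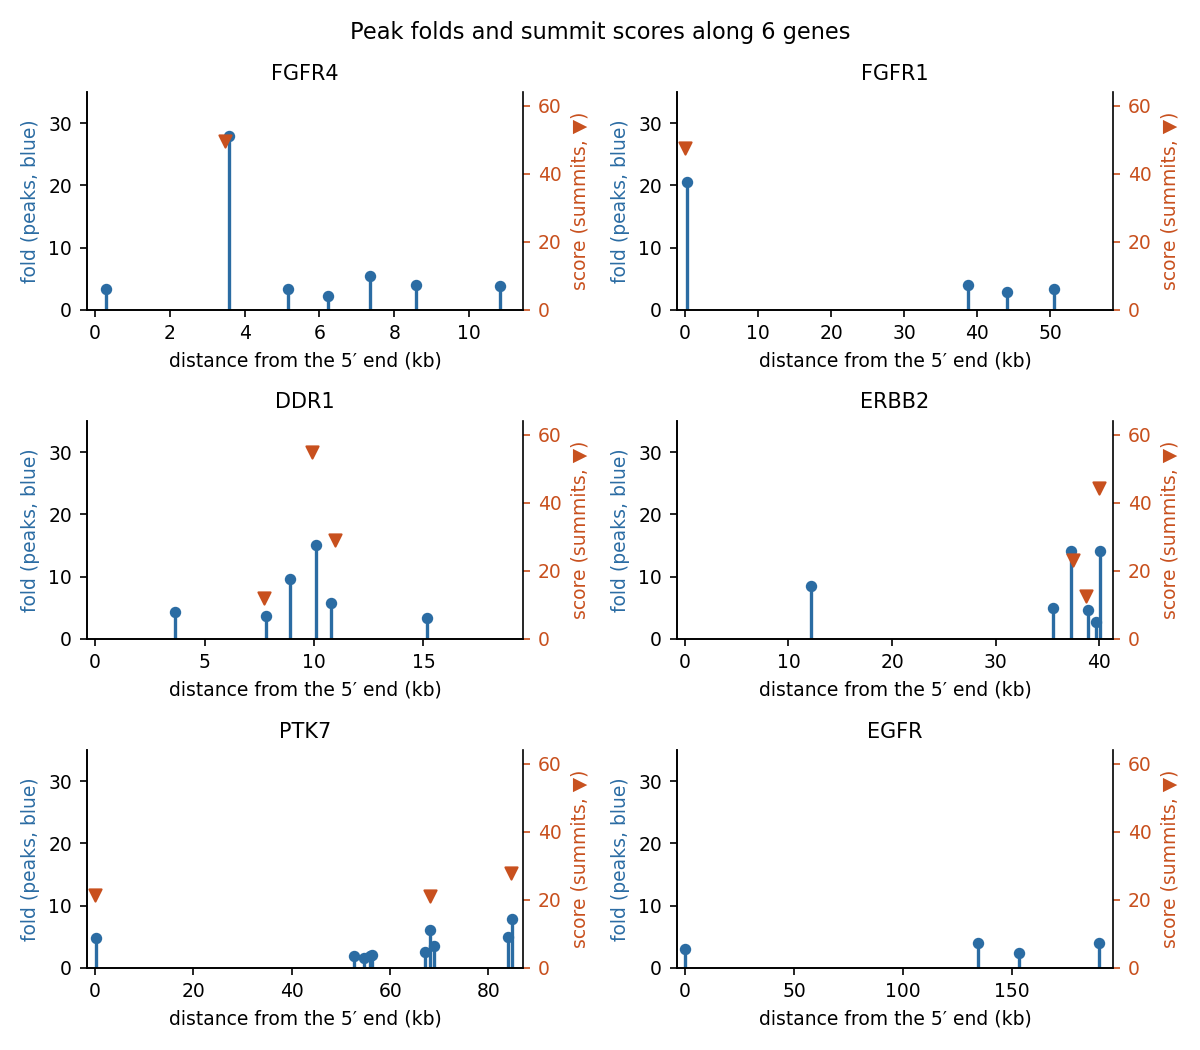
For 6 genes, stems give the fold of each MeTDiff peak (left axis) and triangles the score of each MACS2 summit (right axis, −log10) against distance from the 5′ end in kb. In FGFR4, FGFR1 and DDR1 the highest stem and the highest triangle stand side by side, EGFR has low stems and no triangle, and PTK7 has 3 triangles at 3 separate sites.

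DDR1 encodes a receptor for collagens (ENSG00000204580, chromosome 6, 30880970 to 30900156). Its 6 peaks had folds of 4.25, 3.73, 9.68, 15, 5.71 and 3.31 from the 5′ end, highest in the middle of the gene. The 15-fold peak (30890913 to 30891212) lay at 52.6% of the span and shared 60 bp with the MIR4640 hairpin printed above. Its FDR of 0.000347 was the largest of the 6. The summit within that hairpin had a score of 54.9 (30890891), above 97.2% of all summits. The other summits had scores of 12.1, at the internal transcript start 2 bp before the second peak, and of 29.1, 58 bp from a block of the fifth. DDR1 has 8 annotated transcript starts in the promoter table, and 0 of its 6 peaks lay within 500 bp of the outermost one. The first peak instead overlapped the windows of starts at 30884519 and 30884980, by 104 and 35 bases. DDR2, its only close relative, had neither a peak nor a summit.

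PTK7 encodes a receptor of Wnt and planar polarity signalling whose kinase domain is inactive (ENSG00000112655, chromosome 6, 43076314 to 43161715). It had 10 peaks, the most of the 10 genes, and 98.4% of protein-coding genes with a peak had fewer. Folds were low, with a median of 3.06 and a range from 1.66 to 7.90. The first peak (4.75-fold) lay at the 5′ end, followed by 52139 bp without a peak. A run of 4 peaks with folds from 1.66 to 2.10 then lay between 61.7% and 66.0% of the span, and 3 more between 78.4% and 80.7%.

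The last PTK7 peaks, of 5.00-fold and 7.90-fold, lay at 98.3% and 99.2% of the span (43159867 to 43160721 and 43160871 to 43161120). Each of the 3 summits lay beside the peak of largest fold of its cluster. Their scores were 21.5 at the 5′ end, 21.0 beside the 6.06-fold peak and 27.8 beside the 7.90-fold peak. Each was 12 to 44 bp upstream of that peak.

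Along the genes, 5 of the 46 peaks had their midpoint within 500 bp of the 5′ end, in EGFR, MET, FGFR1, FGFR4 and PTK7. That is 10.9%, against 14% of 13019 peaks in protein-coding genes with a known strand. Within 500 bp of the 3′ end there was 1 (in FGFR4, 2.17% against 6.18%). Spliced peaks were 23 of 46, against 33.1% of the whole list. Promoter windows (250 bp before to 50 bp after a start) were in the RefSeq table for 8 of the genes. In their outermost windows the share of G and C ran from 60.7% in ERBB2 to 78.7% in FGFR4. The median over 35116 windows, which include those of inner starts, was 58.7%. Inner windows of EGFR (42.0%), AXL (53.7%), FGFR4 (57.3%) and the DDR1 start at 30888688 (44.3%) lay below that median. The other inner windows of these genes lay above it. Peak blocks reached into 3 of the outermost windows, over 50 bases in AXL (66.0% G and C), 10 in FGFR4 (78.7%) and 7 in PTK7 (73.3%). They covered 0 bases of the outermost windows of EGFR (75.3%), MST1R (71.3%), MET (69.3%), DDR1 (62.3%) and ERBB2 (60.7%).

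Of the 14 summits 3 lay inside a block of a MeTDiff peak (21.4%), 2 in ERBB2 and 1 in FGFR1. The Wilson 95% interval, 7.57 to 47.6, covers counting error only. It takes the 14 summits as independent, although they came from 8 genes chosen with results known. Over the whole list 35.3% of summits lay inside a block (interval 34.1 to 36.5). A further 9 of the 14 lay within 100 bp of a block, so that 12 of 14 were inside or near one, against 76.9% of all summits. All 9 were on the 5′ side of the block along the RNA. The same side held 88.4% of the 2607 summits of the whole list that lay outside a block and within 100 bp of it. That share was 89.0% for peaks on the minus strand and 87.8% for peaks on the plus strand. Most summits near a block in the whole list thus lie on the side on which the members' summits lie.

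**Figure D4:**
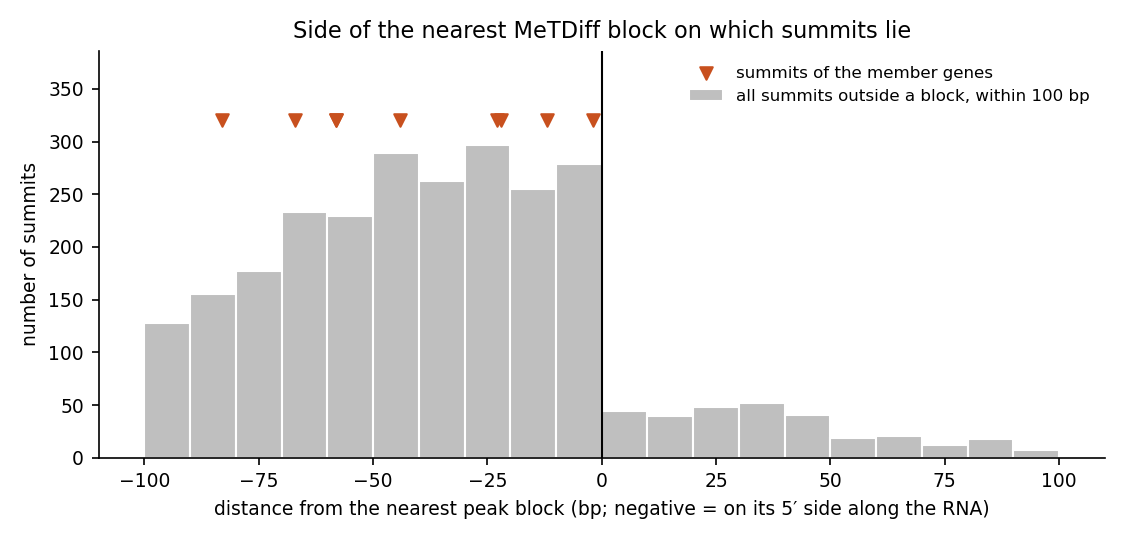
Bars count all MACS2 summits that lie outside a MeTDiff block but within 100 bp of it, in bins of 10 bp, with negative distances on the 5′ side of the block. Triangles mark the 9 such summits of the member genes, which all fall on the 5′ side, as do 88.4% of the 2607 summits counted.

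Other genes of the pathway were read out in the same way, without a test. Of the 48 other receptor tyrosine kinase genes 16 had a peak (33.3%) and 8 a summit (16.7%), close to the share among all protein-coding genes. EPHB4, an ephrin receptor gene, had 8 peaks, the strongest of 43.1-fold, and a highest score of 67.5, above every member in both lists. EPHA2 had 7 peaks, a largest fold of 7.69 and a highest score of 39.8, at a summit that also lies in the span of EPHA2-AS1. RYK, a Wnt receptor gene, had 1 peak of 15-fold and a summit of score 36.9, and AATK a largest fold of 12.7.

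Among 46 genes of ligands, proteases and inhibitors that control their release, and co-receptors, 11 had a peak (23.9%) and 7 a summit (15.2%). Among all protein-coding genes the shares were 37.2% and 18.0%, so the peak share was lower here and the summit share close. FGF2, a ligand of FGFR1, had 15.5-fold enrichment, and GAS6, the ligand of AXL, had 6 peaks with a largest fold of 14.7. That GAS6 peak is on the strand of GAS6 and also lies in the span of GAS6-AS1. NRG2, a neuregulin, had 12.0-fold and the sheddase gene ADAM17 10.1-fold enrichment. SPINT2, an inhibitor of the proteases that activate the MET ligand, had a score of 52.4. HGF, EGF and TGFA were among the 35 with neither.

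Of 33 adaptor and effector genes 21 had a peak (63.6%) and 12 a summit (36.4%), against 37.2% and 18.0% of all protein-coding genes. The median span of these genes was 91968 bp, against 95515 bp in the 48 other receptor tyrosine kinase genes and 34880 bp in the ligand list. Any link between span and share was not tested. The adaptor GRB2 had a largest fold of 23.4 and a score of 53.8. The phosphatase gene PTPN11 had 20.9-fold, the docking protein gene BCAR1 17.0-fold and RASA1, which turns RAS off, 14-fold enrichment, and SHC1 had a score of 31.3. Of 36 genes of negative regulation, folding and endocytosis 18 had a peak (50.0%) and 9 a summit (25.0%), also against 37.2% and 18.0%. The endocytic adaptor EPN1 had 12.4-fold enrichment and a score of 55.7, and the receptor phosphatase genes PTPRF and PTPRJ had 12.7-fold and 10.5-fold enrichment. EPS15L1 reached 12.6-fold. HSP90AB1 and CDC37, which fold client kinases, had scores of 47.7 and 40.2, and the sorting gene HGS 38.4.

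**Figure D5:**
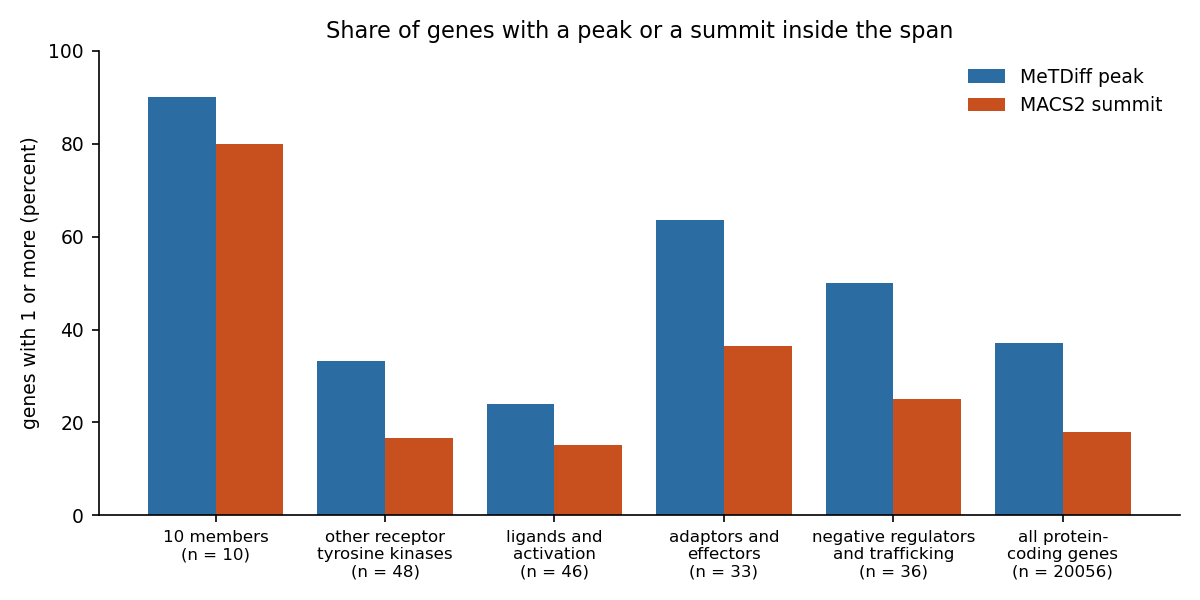
Bars give the percent of genes with at least 1 MeTDiff peak or MACS2 summit inside the span, for the 10 members, 4 lists of pathway genes and all 20056 protein-coding genes. The members have 90.0% and 80.0%, adaptors and effectors 63.6% and 36.4%, and all protein-coding genes 37.2% and 18.0%.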

How the data were processed

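Genome build and tools are given per the submitters' processing notes: GRCh38, STAR 2.7.1, MACS2 2.2.5 and others, with no roles or settings. Which libraries were pooled is not given in the sources used here. Each line of the deposited MACS2 list is a 1-bp summit with a −log10 score, for p or for q. In the deposited MeTDiff list each peak has its p-value, a log10 false discovery rate and a fold, the ratio of precipitate to input. Neither file has a header, so columns were identified by their order and values.

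Gene spans came from RefSeq (GRCh38.p14). A peak counted for a gene when wholly inside its span on either strand, a summit when its base was inside. Ensembl IDs are not paired with symbols in the gene table, so genes were named by position. The members and lists were chosen with earlier results of these data known. Named were all members, their overlapping genes, and up to 4 genes per pathway list by fold and by score. FGFR2, ERBB4, DDR2, TYRO3, MERTK, HGF, EGF, TGFA, CD68 and the ductal and epithelial markers were added to these names after their values were seen. No test was run, because neither list separates conditions or replicates. Assignment was checked on simulated data. Python 3.11.15 and pandas 2.3.3 were used.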

Additional observations from a re-analysis of the deposited data

How the results depend on the processing

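The counts of 46 peaks, 9 genes with a peak, 14 summits and 8 genes with a summit, and both medians, moved by less than 1.5 times under each alternative tried for them. Counting peaks of a gene with the same p-value once gave 38 peaks, and counting by Ensembl ID gave 47. Both were chosen after seeing the data. The share of protein-coding genes with a peak, 37.2%, was 38.0% with any overlap and 35.3% at an FDR of at most 0.01. Among genes that overlap no other it was 32.25%. On the gene's own strand it was 38.2%. That setting can be applied only to genes with a known strand, so its gene set differs from that of the 37.2%. The share with a summit, 18.0%, was 14.7% for scores of at least 10 and 16.15% among genes that overlap no other. Summits in peaks numbered 12 of 14 when widened by 100 bases on each side, against 3. Peaks at the 5′ end numbered 1 within 250 bp, 6 within 1000 bp and 6 by the nearer edge (chosen after seeing the data), against 5. At the 3′ end there were 0 within 250 bp, 4 within 1000 bp and, by the nearer edge (chosen after seeing the data), 2, against 1. These follow from the distance allowed. No paired analysis was possible because the files hold no column per library, and no library could be left out. The folds rest on unknown read numbers, so their precision is unknown.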

Other observations

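The MeTDiff list often gives neighbouring peaks of a gene the same p-value. In the 9 receptor genes with peaks this held for 14 of 46 peaks, among them all 3 of MST1R and the last 3 of ERBB2, while their folds differed (2.25 to 7.17 in MST1R and 2.72 to 14.1 in ERBB2). In the whole list it held for 5161 of 18431 peaks (28.0%). Peaks that held a summit had a median fold of 14.1 in the receptor genes (3 peaks) and of 7.83 in the whole list (2152 peaks). Peaks without one had medians of 3.88 (43 peaks) and 3.89 (16279 peaks). Only a summit inside a block counted here. The 43 thus include the 28.0-fold FGFR4 peak and the 15-fold DDR1 peak, whose summits lay 58 and 22 bp outside the block.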
